A study of Rattus norvegicus with 9 samples.

Results

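Dbp, Tef, Hlf and Nfil3 are 4 transcription factor genes that read out the circadian clock at a shared DNA element. They were taken from the gene table by symbol, 4 of 19294 genes with values, and all 4 had a row. The left ventricle was sequenced from Wistar Kyoto rats (WKY, normotensive, untreated), SHR, the spontaneously hypertensive rat, inbred for high blood pressure and here untreated, and SHR given oxymatrine (SHR_OMT), an alkaloid of Sophora roots, with 3 libraries each, 9 in all. The labels give neither the rats' age, the dose nor the length of treatment, and the time of day of tissue collection is not given in the sources used here. They also do not say whether the 3 libraries of a group came from separate animals, so p-values measure the spread between these libraries, which may be technical. A difference in collection time between groups cannot be told apart from one of strain or treatment. Below, "with treatment" means SHR_OMT against SHR and names a comparison, not a cause. Levels are FPKM (fragments per kilobase of gene length, scaled to library size), which can be compared between genes, and changes are differences of mean log2(FPKM + 1), which understate the change of low genes. A gene was called at an adjusted p under 0.05 in limma, with Benjamini-Hochberg adjustment over the 12451 genes whose mean over the 9 libraries reached 1 FPKM. Dbp, Tef and Nfil3 were among them, and Hlf was below that level.

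Dbp, Tef and Hlf form the PAR bZIP family, named for a proline- and acidic-residue-rich stretch beside a basic leucine zipper. They bind the D-box as homodimers or heterodimers and activate transcription. Nfil3, also called E4BP4, is a basic leucine zipper factor without the PAR stretch that binds the same D-box and represses. In the clock, Dbp is switched on at E-boxes by the activator pair of Clock and Arntl (Bmal1). Nfil3 answers to the REV-ERB and ROR receptors (among them Nr1d1, Nr1d2 and Rora), as Arntl itself does, so the activators and the repressor of the D-box peak at opposite phases of the day.

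The start-site windows of the members are shown because Dbp and Tef rose together while Nfil3 was lowest in the treated group. RefSeq windows of 250 bases before to 50 bases after a start, on build GRCr8, matched 3 of the 4 members by Gene ID. The capitals mark the E-box CACGTG.
Dbp (chr1:105312006-105312305, + strand): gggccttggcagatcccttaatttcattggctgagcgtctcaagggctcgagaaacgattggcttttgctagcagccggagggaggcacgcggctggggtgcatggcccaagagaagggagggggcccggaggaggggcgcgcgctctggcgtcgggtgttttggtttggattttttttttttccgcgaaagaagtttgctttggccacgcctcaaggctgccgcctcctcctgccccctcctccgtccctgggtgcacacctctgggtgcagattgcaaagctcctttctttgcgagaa
Tef (chr7:115206577-115206876, + strand): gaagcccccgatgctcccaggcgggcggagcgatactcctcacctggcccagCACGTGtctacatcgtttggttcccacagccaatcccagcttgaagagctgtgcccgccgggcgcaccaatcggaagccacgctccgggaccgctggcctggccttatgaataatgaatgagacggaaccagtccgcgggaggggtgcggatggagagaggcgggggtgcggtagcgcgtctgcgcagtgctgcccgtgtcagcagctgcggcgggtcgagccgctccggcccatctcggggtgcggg
Nfil3 (chr17:12432126-12432425, + strand): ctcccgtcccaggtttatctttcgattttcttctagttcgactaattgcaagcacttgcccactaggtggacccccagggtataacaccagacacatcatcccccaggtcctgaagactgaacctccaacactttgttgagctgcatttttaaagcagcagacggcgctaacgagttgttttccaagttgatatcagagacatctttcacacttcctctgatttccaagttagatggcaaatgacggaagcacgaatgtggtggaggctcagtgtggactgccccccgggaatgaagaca
The Tef window lies at a start inside the gene's span, and those of Dbp and Nfil3 at the gene's outer end. Both strands were searched for the E-box CACGTG, the related CACGTT, the D-box forms TTATGTAA and TTACGTAA, the cAMP element TGACGTCA and AGGTCA, the core read by REV-ERB and ROR. The only match was the E-box of Tef, starting 198 bases before the start, a motif held by 6.42% of 33465 RefSeq windows of this length. No match says only that these letters are not in these windows.

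Dbp, the D-box activator with the widest daily swing in many tissues (NCBI Gene ID 24309), was the member that differed most between treated and untreated SHR. It had 80.97, 60.84 and 89.45 FPKM in SHR_OMT replicates 1 to 3, against 17.05, 15.31 and 16.72 in SHR and 9.52, 15.82 and 9.01 in WKY. All 3 treated libraries lay far above the other 6, and WKY replicate 2 lay within the SHR range while the other WKY libraries lay below it. The mean rose from 16.4 ± 0.924 FPKM in SHR to 77.1 ± 14.7 in SHR_OMT (SD, n = 3), 4.71 times the untreated level. The log2 change of Dbp was 2.15 (SE 0.19, 95% interval 1.72 to 2.59, limma adjusted p = 0.00298), the third largest in size of all 12451 tested genes. Here 0.241% of tested genes were called in either direction, 0.153% higher and 0.0883% lower, and 17.2% had groups that did not overlap.

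Tef, thyrotroph embryonic factor, a D-box activator present in many tissues (NCBI Gene ID 29362), moved the same way with a smaller change. Its levels were 42.94, 40.0 and 43.41 FPKM in SHR_OMT, 24.07, 20.96 and 24.21 in SHR, and 18.06, 20.79 and 15.79 in WKY. The 3 groups did not overlap, although WKY replicate 2 and SHR replicate 2 lay close together. Groups did not overlap in 17.2% of tested genes for SHR_OMT against SHR, 48.1% for SHR against WKY and 42.7% for SHR_OMT against WKY. Tef rose from 23.1 ± 1.84 FPKM in SHR to 42.1 ± 1.85 in SHR_OMT (SD, n = 3), a log2 change of 0.84 (95% interval 0.63 to 1.05, limma adjusted p = 0.0098). The call was lost without SHR replicate 2 (adjusted p = 0.0542), without SHR_OMT replicate 1 (0.0620) and with no filter on low values (0.0687). The 95% intervals of Dbp and Tef did not overlap, and the difference between their changes was not tested.

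Nfil3, the D-box repressor (NCBI Gene ID 114519), was lowest in the treated libraries. It had 7.01, 8.07 and 7.71 FPKM in SHR_OMT, 9.98, 11.99 and 11.67 in SHR, and 16.21, 12.09 and 15.18 in WKY. The groups did not overlap (shares over all tested genes as given for Tef), but WKY replicate 2 and SHR replicate 2 were nearly level. Between treated and untreated SHR, with means of 7.60 ± 0.539 and 11.2 ± 1.08 FPKM (SD, n = 3), the log2 difference was −0.50 (95% interval −0.75 to −0.26). This did not pass the test (limma adjusted p = 0.132, unadjusted p = 0.00105), and it passed in none of 20 alternatives (adjusted p of 0.0673 to 0.346).

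Hlf, hepatic leukemia factor, the other PAR bZIP activator (NCBI Gene ID 690286), was at or below 0.96 FPKM in every library. Its mean over the 9 libraries was 0.599 FPKM, and 31.5% of the 19294 genes had a lower mean. Its levels were 0.96, 0.77 and 0.81 FPKM in SHR_OMT, 0.43, 0.29 and 0.35 in SHR, and 0.66, 0.45 and 0.67 in WKY. Hlf was thus lowest in untreated SHR, with WKY between, and the groups did not overlap in any of the 3 comparisons. The shares of tested genes without overlap were 17.2% for SHR_OMT against SHR, 48.1% for SHR against WKY and 42.7% for SHR_OMT against WKY. Those shares leave out Hlf, which was not tested. The treated mean was 2.37 times the untreated one, with 0.847 ± 0.1 against 0.357 ± 0.0702 FPKM (SD, n = 3). An exact two-sided permutation test over these 6 libraries gave p = 0.10, the smallest that 3 against 3 allows. When every gene with values was fitted, the adjusted p for Hlf was 0.128, where 0.0622% of 19294 genes were called. At these FPKM few fragments can lie behind each value, and their number is not known.

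**Figure D1:**
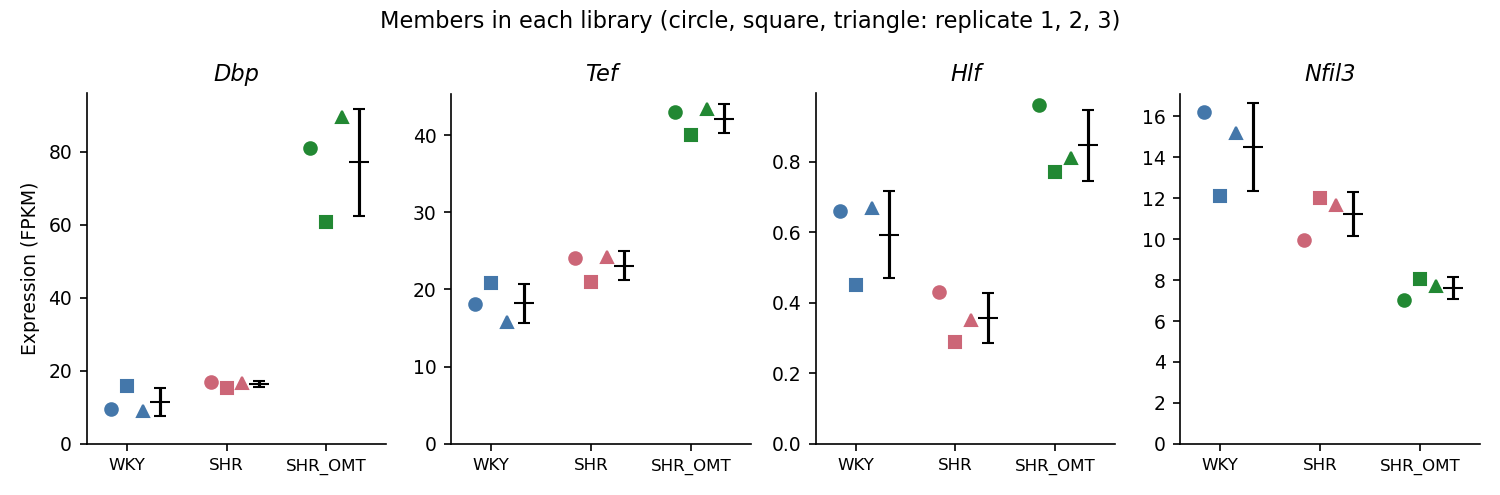
Expression of Dbp, Tef, Hlf and Nfil3 in FPKM (vertical axes, from 0, with a scale of their own) in each library of WKY, SHR and SHR_OMT. Points are libraries, with circle, square and triangle for replicates 1, 2 and 3, and the black bar is the group mean with its SD over 3 libraries. Treated libraries are highest for Dbp, Tef and Hlf and lowest for Nfil3.

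Between the untreated strains the members differed less. Tef was higher in SHR than in WKY, with 23.1 ± 1.84 against 18.2 ± 2.5 FPKM (log2 change 0.33, 95% interval 0.12 to 0.54, limma adjusted p = 0.0240). Nfil3 was lower, with 11.2 ± 1.08 against 14.5 ± 2.14 FPKM (log2 change −0.34, 95% interval −0.58 to −0.09, limma adjusted p = 0.0387). These were 2 of the 3 tested members, in a comparison where 33.9% of all tested genes were called, 10.8% higher and 23.1% lower, so a call here says little about the members. Both calls were fragile: that of Tef did not hold in 6 of the 20 other settings tried, the highest adjusted p being 0.0732, and that of Nfil3 in 10 of the 20, the highest being 0.134. With median-of-ratios scaling the adjusted p for Nfil3 was 0.110.

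Dbp had 16.4 ± 0.924 FPKM in SHR and 11.4 ± 3.79 in WKY, a log2 difference of 0.52 that did not pass (95% interval 0.08 to 0.96, limma adjusted p = 0.0653). Its WKY libraries varied by 33.1% of their mean, against 5.65% in SHR. Without WKY replicate 2 the log2 difference of Dbp was 0.76 and passed (adjusted p = 0.00569), and it also passed with median-of-ratios scaling (0.0467), with quantile normalization (0.0453) and with sample weights (0.0342). Hlf had 0.593 ± 0.124 FPKM in WKY and 0.357 ± 0.0702 in SHR, so it was lower in SHR whereas Dbp and Tef were at or above the WKY level (exact permutation p = 0.10, two-sided, the smallest possible). Of the tested genes 48.1% had SHR and WKY libraries that did not overlap.

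Treated SHR and WKY differ in both strain and treatment. Dbp, Tef and Nfil3 differed more here than in the other 2 comparisons, and Hlf less. All 3 tested members were called, where 24.9% of genes were (10.2% higher and 14.6% lower). Dbp was 6.73 times the WKY level, a log2 change of 2.67 (95% interval 2.24 to 3.11, limma adjusted p = 3.48e-05). Tef was 2.31 times the WKY level (log2 change 1.17, adjusted p = 6.3e-05) and Nfil3 0.524 times (log2 change −0.84, adjusted p = 0.000782). These 3 calls held in all 20 alternatives. Hlf was 1.43 times the WKY level, with no overlap between the groups, as in 42.7% of tested genes (exact permutation p = 0.10, two-sided). The 3 comparisons share their libraries in pairs, so their changes are not independent of each other.

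**Figure D2:**
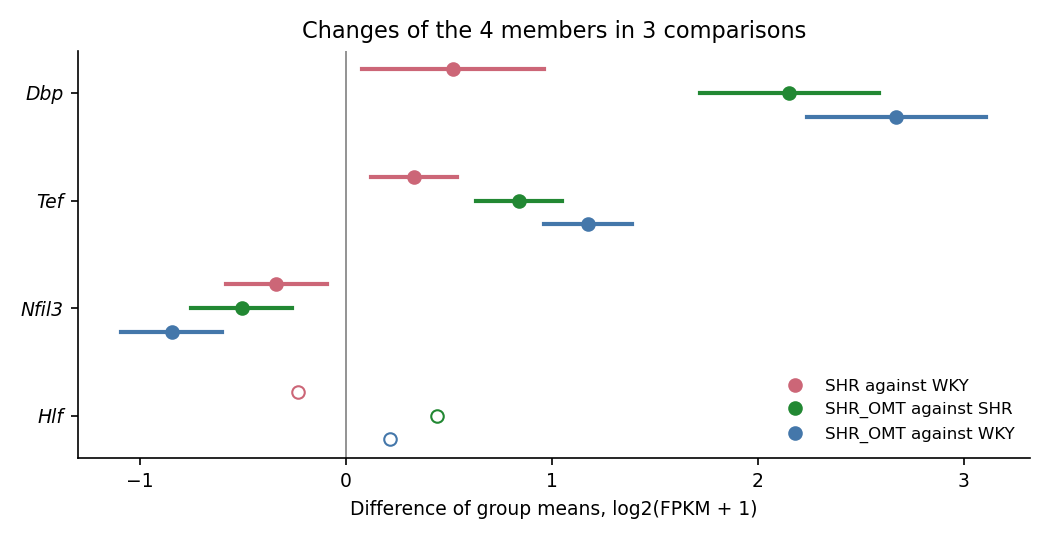
Difference of group means on the log2(FPKM + 1) scale (horizontal axis) for the 4 members in the 3 comparisons, by colour. Lines are 95% intervals from limma, and open circles without lines mark Hlf, which was below the level for testing. The 3 intervals of Dbp and of Tef lie above 0 and those of Nfil3 below 0. Each interval is for a single gene and is not adjusted for the 12451 genes tested. Dbp in SHR against WKY and Nfil3 in SHR_OMT against SHR were not called.

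In the authors' deposited table Dbp has a log2 ratio of 2.22 for treated over untreated SHR (q = 4.46e-49), Tef 0.819 (q = 6.13e-18), Hlf 1.20 (q = 0.0434) and Nfil3 −0.513 (q = 0.0515). For SHR over WKY the authors' deposited table gives Dbp 0.634 (q = 0.0158), Tef 0.444 (q = 0.000847), Hlf −0.652 (q = 0.289) and Nfil3 −0.285 (q = 0.207). All 8 signs are those found here. The authors' q passes 0.05 for Dbp between the strains and for Hlf with treatment, where no call was made here, and it does not pass for Nfil3 between the strains, where one was.

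Set beside each other, the levels of the D-box activators and their repressor parted. Dbp, Tef and Hlf together came to 28.24, 37.06 and 25.47 FPKM in the WKY libraries, 41.55, 36.56 and 41.28 in SHR and 124.87, 101.61 and 133.67 in SHR_OMT. Tef was the more abundant activator in all 6 untreated libraries, with 0.53 to 0.76 Dbp per Tef, and Dbp in the 3 treated ones, with 1.52 to 2.06. Dbp made up 33.7% to 42.7% of the activator sum in untreated libraries and 59.9% to 66.9% in treated ones.

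The ratio of Dbp to Nfil3 was 0.59, 1.31 and 0.59 in WKY, 1.71, 1.28 and 1.43 in SHR, and 11.55, 7.54 and 11.6 in SHR_OMT. That of Tef to Nfil3 was 1.11, 1.72 and 1.04 in WKY, 2.41, 1.75 and 2.07 in SHR, and 6.13, 4.96 and 5.63 in SHR_OMT. These ratios are descriptions of RNA levels and were not tested.

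**Figure D3:**
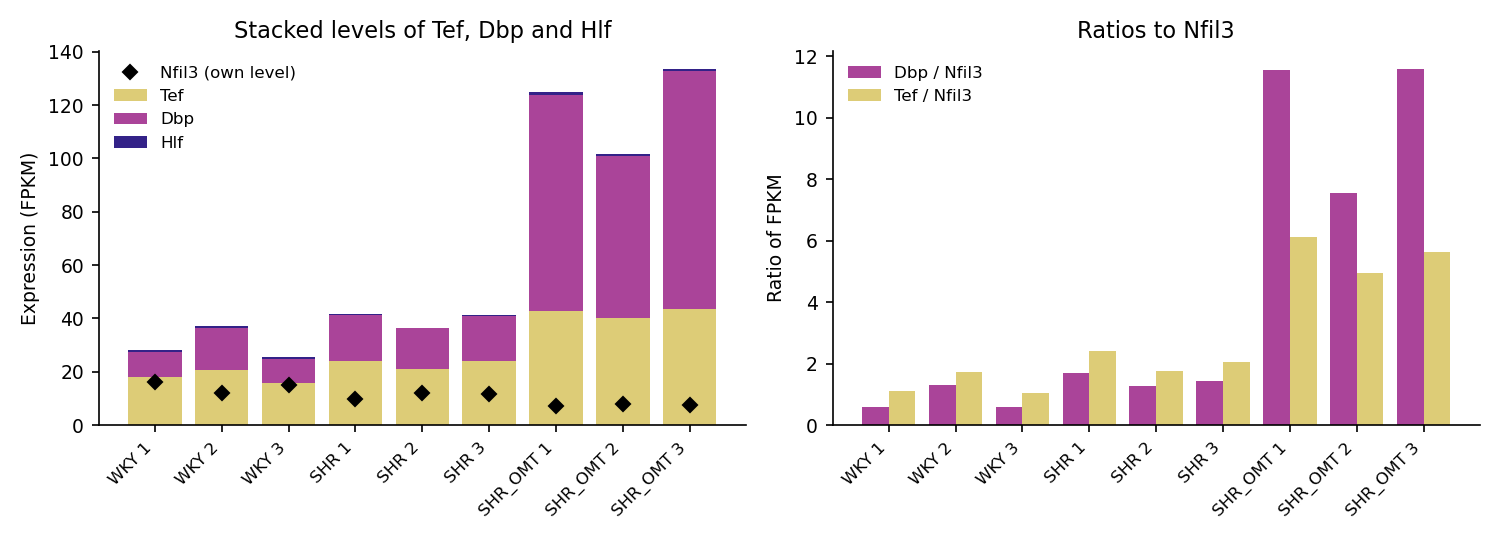
Left, FPKM of Tef, Dbp and Hlf stacked in each library, with the level of Nfil3 as black diamonds. Right, the ratio of Dbp and of Tef to Nfil3 in the same libraries. The treated libraries reach 101.61 to 133.67 FPKM in the stack, the untreated ones 25.47 to 41.55.

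Libraries of a group also varied together. Within WKY, replicate 2 had the most Dbp and Tef and the least Nfil3 and Hlf, and on all 4 members it was the WKY library nearest to SHR. In SHR_OMT, replicate 2 had the least Dbp, Tef and Hlf and the most Nfil3, and the same held for SHR replicate 2. The order of the group means was WKY, SHR, SHR_OMT for Dbp and Tef and the reverse for Nfil3, and only the WKY and SHR neighbours of Dbp overlapped. For Hlf the order was SHR, WKY, SHR_OMT.

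The genes whose pattern over the 9 libraries was most like that of Dbp were other clock genes, by the Pearson correlation of log2(FPKM + 1). These were Ciart (0.993), a repressor of the clock activators, then Tef (0.989), Per3 (0.988), a period repressor, and Bhlhe41 (0.980) and Bhlhe40 (0.978), which compete at E-boxes. The lowest were Arntl (−0.993), Npas2 (−0.973), the partner that can replace Clock, and Hyi (−0.965). For Tef the most alike were Per3 (0.989), Dbp (0.989), Nr1d2 (0.986), Bhlhe41 (0.986) and Clec12b (0.985), and the lowest were Arntl (−0.983), Npas2 (−0.981) and Nfil3 (−0.962). The 9 libraries fall into 3 groups, so these values largely follow the group means, and they are given as descriptions.

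Nfil3 had other companions. Napg (0.965), Peg3 (0.958), Sarnp (0.956), Fam124b (0.953) and Stox2 (0.950) were most like it, and Pygb (−0.986), the brain form of glycogen phosphorylase, Mid1ip1 (−0.976) and Clec12b (−0.968) were least. A correlation does not measure the size of a change. Mean FPKM in WKY and SHR_OMT was 13.6 and 12.0 for Napg, 3.25 and 0.96 for Fam124b, and 14.5 and 7.60 for Nfil3. Among the clock genes the correlation of Nfil3 with Dbp was −0.952, between those of Cry1 (−0.912) and Npas2 (−0.973). Hlf was less like Dbp (0.646) and Tef (0.594), and on the clock genes' scale it stood beside Cry2 and Per1.

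**Figure D4:**
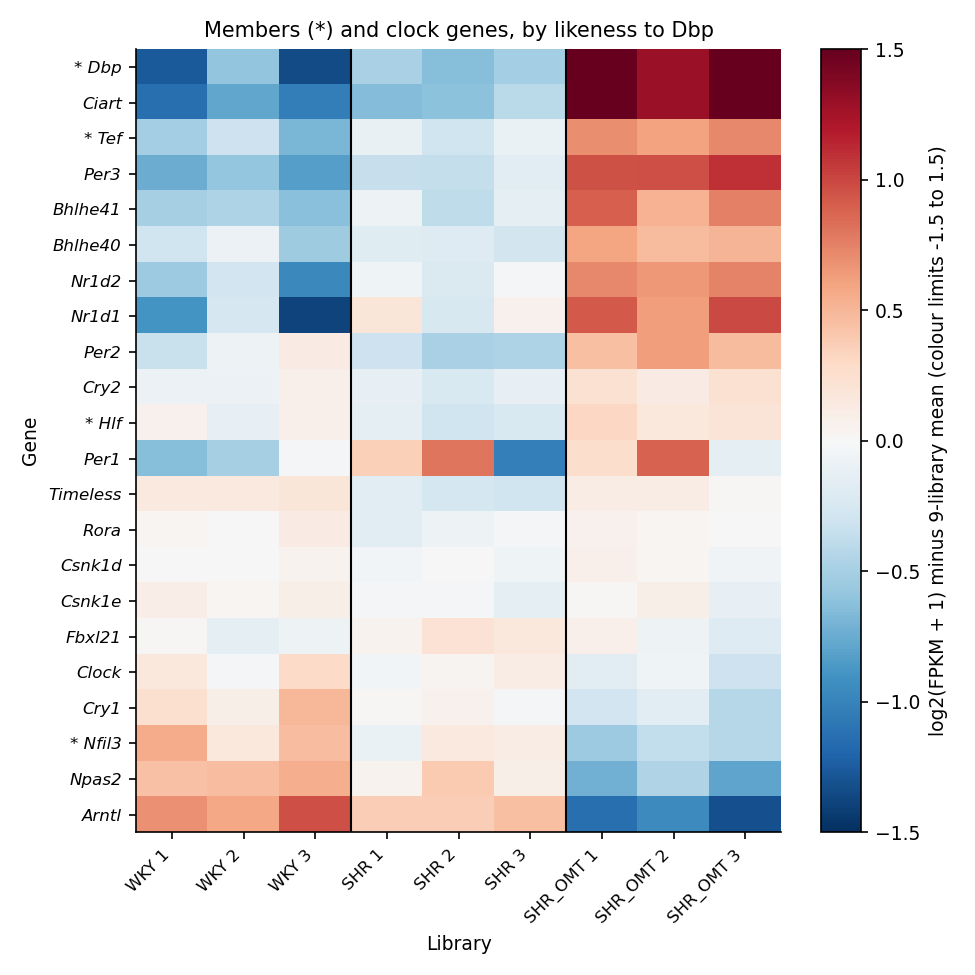
Members (marked *) and clock genes in rows, ordered by their correlation with Dbp, and the 9 libraries in columns. Colour is log2(FPKM + 1) minus the gene's mean over the 9 libraries. Dbp, Ciart, Tef and Per3 are high in the treated libraries, while Nfil3, Npas2 and Arntl are low there.

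The rest of the clock was followed in 2 lists. Of 14 repressors and E-box genes, 5 rose in treated against untreated SHR and none fell, with a list median of 0.55 against 0.039 over all tested genes. They were Ciart, which rose by 2.10 on the log2 scale, Per3 by 1.3, Bhlhe41 by 0.93, Per2 by 0.94 and Bhlhe40 by 0.74. Over the alternatives the count ran from 2 to 6. It was 2 with no filter on low values and without SHR replicate 2, SHR_OMT replicate 1 or SHR_OMT replicate 3, and 3 without SHR replicate 3 or SHR_OMT replicate 2. Nr1d2 and Nr1d1, the REV-ERB receptors that repress Nfil3 and Arntl, had log2 differences of 0.81 and 0.84 that did not pass (limma adjusted p = 0.0762 and 0.231). Nr1d2 passed in 3 of 20 alternatives (lowest adjusted p = 0.00591) and Nr1d1 in 0 of 20. Nr1d1 had 66.33, 53.71 and 69.33 FPKM in SHR_OMT, 39.16, 29.07 and 36.09 in SHR, and 18.03, 28.75 and 12.51 in WKY. Nr1d1, like Dbp, was highest in the treated libraries, and within WKY highest in replicate 2.

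Of 6 tested clock activators and genes of the REV-ERB and ROR element, to which Nfil3 also belongs, 2 fell with treatment and none rose (list median −0.26). Arntl fell by 1.53 (limma adjusted p = 0.000588) and Npas2 by 0.83 (adjusted p = 0.0324). The Npas2 call did not hold in 9 of the 20 other settings, where the highest adjusted p was 0.138. Cry1 and Clock had log2 differences of −0.31 and −0.21 that did not pass (adjusted p = 0.338 and 0.404). Between SHR and WKY, Per3, Nr1d1, Nr1d2, Ciart and Bhlhe41 were higher among the 14, Timeless was among those that were lower, and Arntl was lower among the 6, where 33.9% of all tested genes were called. The count of 5 higher genes fell to 1 with no filter on low values, without WKY replicate 1 or without SHR replicate 1, and to 2 without WKY replicate 3 or SHR replicate 3. Of these calls, Ciart was lost in 10 of 19 settings, Bhlhe41 in 9 of 20, Nr1d1 in 5, Nr1d2 in 4 and Per3 in 0. Arntl was lost in 10 of 20, at adjusted p-values reaching 0.115.

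Windows of these clock genes are shown because they hold the letters that the clock activators or the members themselves read. The capitals mark CACGTG in the first 3 and TTATGTAA in Per2, the RefSeq build is GRCr8, and each runs 5′ to 3′ on the gene's strand.
Ciart E-boxes (chr2:186112242-186112359, - strand): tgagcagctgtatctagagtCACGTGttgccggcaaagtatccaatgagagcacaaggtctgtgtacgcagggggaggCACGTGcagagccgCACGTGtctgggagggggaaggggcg
Bhlhe40 E-box (chr4:143174210-143174255, + strand): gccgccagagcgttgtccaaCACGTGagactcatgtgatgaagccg
Bhlhe41 E-box (chr4:180569378-180569423, - strand): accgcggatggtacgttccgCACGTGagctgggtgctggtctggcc
Per2 D-box (chr9:99497158-99497205, - strand): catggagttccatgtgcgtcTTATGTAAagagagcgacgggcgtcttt
The E-box was found in 3 of 12 repressor and E-box genes with a window, against 6.42% of all windows, and Ciart held 3 copies. The list was chosen in part as E-box genes, so this share is no independent result about them. TTATGTAA, held by 0.893% of all windows, was found in Per2 alone of these 12. CACGTT, held by 4.83% of all windows, was found in 3 of the 12, Per2, Cry2 and Nr1d1. AGGTCA, held by 16.2%, was found in Nr1d2 alone of the 12. In the list of activators and REV-ERB and ROR element genes it was found in Arntl alone of 4 with a window. The choice of the lists limits these shares in the same way. A match is a description of letters and not a measured site.

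The reported targets of the PAR bZIP factors are mostly known from mouse liver and kidney. Of 28 listed, 22 had values and 14 were tested, and with limma 0 rose and 0 fell in SHR_OMT against SHR, with 5 at an unadjusted p under 0.05 and a median of 0.08 against 0.039 over all genes. The count was 0 in all alternatives too, and with 0.241% of all tested genes called, a count of 0 in a list of this size says little about the targets. Usp2, a deubiquitinase with a D-box dependent isoform in mouse liver, had the smallest p. Its levels were 44.04, 34.49 and 41.59 FPKM in SHR_OMT, 25.73, 29.32 and 21.45 in SHR, and 15.76, 18.31 and 15.69 in WKY. The 3 groups of Usp2 did not overlap (shares over all tested genes as given for Tef) and stood in the order of Dbp and Tef. Its log2 difference with treatment was 0.63 (limma adjusted p = 0.101), and it was called higher in SHR than in WKY (0.58, adjusted p = 0.006) and in SHR_OMT than in WKY (1.22, adjusted p = 0.000207).

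Ces1d, a carboxylesterase whose window held TTATGTAA at 2 places, had 63.71, 68.59 and 59.87 FPKM in SHR_OMT and 83.75, 81.79 and 78.23 in SHR. Its levels were therefore lower in the treated libraries, opposite to Dbp and Tef (log2 difference −0.34, limma adjusted p = 0.158). The 2 matches of Ces1d lie within this stretch, in capitals, the second on the other strand.
Ces1d D-boxes (chr19:30046246-30046456, + strand): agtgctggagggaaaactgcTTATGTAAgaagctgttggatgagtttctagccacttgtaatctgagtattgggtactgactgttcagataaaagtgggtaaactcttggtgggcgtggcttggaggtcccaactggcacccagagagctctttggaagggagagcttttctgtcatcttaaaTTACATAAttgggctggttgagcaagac
Nr1i3, the xenobiotic receptor CAR, and Acot3, an acyl-CoA thioesterase, had log2 differences of 0.36 and 0.23 (limma adjusted p = 0.177 and 0.222). In SHR against WKY 4 of the 14 targets were higher and 3 lower, and in SHR_OMT against WKY also 4 and 3, where 33.9% and 24.9% of all tested genes were called.

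Of 20 genes reported to follow the clock in heart, limma called 0 in treated against untreated SHR, with 6 at an unadjusted p under 0.05. Klf15, a regulator of cardiac metabolism and repolarization, had a log2 difference of 0.37 (adjusted p = 0.249), with 23.95, 20.82 and 26.60 FPKM treated and 18.19, 19.03 and 17.01 untreated. Kcnd2, a channel of the transient outward current, had one of 0.69 (adjusted p = 0.325). In SHR against WKY, 9 of the 20 were higher and 1, Hsf1, lower, where 10.8% of all tested genes were higher and 23.1% lower. That count of 9 ran from 4 to 10 over the alternatives. In SHR_OMT against WKY, 8 were higher and 2, Ucp3 and Hsf1, lower, where 10.2% and 14.6% of all tested genes were. Of 35 other basic leucine zipper genes, among them the C/EBP, ATF, Jun and Maf families, limma called 0 with treatment, and 4 were at an unadjusted p under 0.05. Of 16 glucocorticoid responsive genes and of 16 immediate early genes, limma called 0 each with treatment, with 3 and 4 at an unadjusted p under 0.05. With 0.241% of all tested genes called, these counts of 0 say little about the lists.

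None of the nearest annotated genes that were tested was called with treatment. With 0.241% of all tested genes called, this says little about so few neighbours. Car11 and Sphk2, on either side of Dbp, had log2 differences of 0.25 and −0.14 with treatment (limma adjusted p = 0.361 and 0.429). Zc3h7b and Tob2, beside Tef, had 0.14 and 0.04 (adjusted p = 0.362 and 0.973), and Auh, beside Nfil3, had −0.08 (adjusted p = 0.760). Mmd and Stxbp4, beside Hlf, had 0.18 and −0.02 (adjusted p = 0.482 and 0.969). Ror2, on the other side of Nfil3, was at 0.16 to 0.41 FPKM in the 9 libraries and was not tested. Car11 was lower in SHR than in WKY (log2 change −0.40, adjusted p = 0.0127). None of these neighbours overlapped a member in the RefSeq gene table.

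The tissue label was checked against markers fixed as lists. All 10 heart muscle markers were present, with a summed level of 37996 to 38477 FPKM in WKY, 40150 to 41710 in SHR and 36188 to 40389 in SHR_OMT. Atrial heart muscle markers were summed to 1293 to 2657, 1001 to 4482 and 1000 to 1950 FPKM, an uneven level within groups. Of 7 tested, 2 were lower in SHR than in WKY, Myl7 and Stard10, and 0 were called with treatment. Of all tested genes, 23.1% were lower and 10.8% higher in SHR than in WKY, and 0.241% were called with treatment. These atrial counts therefore say little about the markers. The share of atrial tissue in each library was not tested. Endothelial markers were summed to 799 to 919 FPKM in WKY, 599 to 655 in SHR and 659 to 680 in SHR_OMT, and 8 of 10 were lower in SHR than in WKY and 0 of 10 called with treatment. Lymphocyte and natural killer cell markers, from cells in which Nfil3 is well known, were summed to 25.0 to 30.1, 26.9 to 33.1 and 23.5 to 41.3 FPKM. Of 6 tested, 2 were lower in SHR than in WKY, which beside 23.1% of all tested genes says little. Schwann cell markers were at 56.9 to 79.4, 57.6 to 71.4 and 75.3 to 87.2 FPKM, with 0 of 7 called with treatment. Of these 7, 5 had an unadjusted p under 0.05 with treatment, and their median log2 difference was 0.74. Neutrophil markers were at 7.28 to 11, 11.4 to 39.9 and 7.87 to 13.8 FPKM, and both tested ones, S100a8 and S100a9, were higher in SHR than in WKY. With treatment both had an unadjusted p under 0.05 and neither passed (median log2 difference −1.09). No listed marker with a row was at 0 in all 9 libraries, and the part of any cell type in the members' differences was not tested. In bulk tissue, fewer cells of a type and less RNA per cell cannot be told apart. The FPKM sum lay between 587526 and 606633 in the 9 libraries, and read depth is unknown.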

How the data were processed

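Per the labels' protocols, Trizol RNA was made into KAPA RNA HyperPrep libraries and sequenced on a BGISEQ-500. RSEM 1.3.1, Bowtie2, DESeq2 1.4.5 and the Rnor_6.0 build are named in the submitters' processing notes with no settings. The deposited table holds, by its headers, 1 FPKM value per gene and library. It also holds the authors' own log2 ratios and q-values, quoted here only as theirs. Of 22864 rows, 19294 had values. Of 238 ratios between low values of a gene, 31.9% came within 0.1 of a whole multiple (20% if evenly spread), so reads were not recovered and no counting error can be given. RSEM divides reads between similar genes.

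Columns were assigned to samples by library name. Log2(FPKM + 1) of genes with a mean of 1 FPKM or more was fitted with limma 3.58.1 under R 4.3.3, in a single fit over 3 groups with 6 residual degrees of freedom and a mean-variance trend, two-sided. The fit was tested on simulated data. Figures were drawn with matplotlib 3.10.9. Promoter windows came from RefSeq, on another build than the authors', and gene neighbours from the RefSeq gene table of GRCr8. Several intervals and likeness values are descriptions without tests.

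The members and lists were chosen with earlier results of these data known. Named genes were the 4 members, up to 4 genes with the smallest p of a described list, genes that a count of 5 or fewer refers to, the 5 most and 3 least like genes per tested member, and the nearest neighbours. Nr1d1, Nr1d2, Cry1, Clock and Usp2 between groups, and in places others, were named after their values were seen, and some genes that the rule takes were left out for length. A few results on clock genes are not reported here. Alternatives were a pseudocount of 0.1, no filter, a mean FPKM of at least 5, 2 other scalings, fits of the compared groups alone, sample weights, a constant variance prior, a replicate block and each library left out. A mean FPKM of at least 0.5, alone and with a pseudocount of 0.1, was added after the data were seen.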

Additional observations from a re-analysis of the deposited data

How the results depend on the processing

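The direction of every member was kept in all alternatives run. The calls of Dbp in SHR_OMT against SHR and of Dbp, Tef and Nfil3 in SHR_OMT against WKY held in all 20. With no filter on low values, 0 members were called between SHR and WKY, where 21.3% of 19294 genes were. Between SHR_OMT and SHR 1 member was called, where 0.0622% of genes were. With 4 members, a count of 0 beside 21.3% says little about them. Without the filter Tef lost both calls, at log2 changes of 0.33 (limma adjusted p = 0.0535) and 0.84 (0.0687). Nfil3 lost its call in SHR against WKY at −0.34 (0.0799). More genes are tested under that setting, and the unadjusted p-values were also larger. For Tef in SHR_OMT against SHR the SE went from 0.0944 to 0.0992 and the unadjusted limma p from 6.3e-06 to 4.98e-05. Between SHR and WKY, Dbp passed with median-of-ratios scaling (0.61), quantile normalization (0.61) and sample weights (0.58), while Nfil3 did not pass with either scaling (−0.24 and −0.25). With only the compared groups fitted, 1 member was called between SHR and WKY, where 3845 of 12451 genes were. Nfil3 missed there at −0.34 (limma adjusted p = 0.0608). The cause was not tested.

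Leaving out 1 library gave 0 to 3 members called between SHR and WKY and 1 to 2 between SHR_OMT and SHR. Over all tested genes (12438 to 12480), those fits called 2868 to 4226 between SHR and WKY. Between SHR_OMT and SHR they called 6 to 33. The member counts between the strains therefore say little about the members. In SHR against WKY the log2 change of Dbp ran from 0.38 to 0.76, highest without WKY replicate 2, that of Tef from 0.24 to 0.43, and that of Nfil3 from −0.45 to −0.26. In SHR against WKY, 0 members were called without WKY replicate 1 or 3 or SHR replicate 1 or 3, and 1 without SHR replicate 2. In SHR_OMT against SHR, Tef ran from 0.78 to 0.88.

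The labels do not say whether replicate numbers pair the libraries. Over all tested genes, deviations of same-numbered libraries from their group means correlated at −0.109 to 0.028. Those of other-numbered libraries correlated at −0.076 to 0.072. A pairing that touches few genes could not be seen this way. With the replicate block, 0 members were called between SHR and WKY, where Tef had 0.33 (adjusted p = 0.0501) and Nfil3 −0.34 (0.0691), and 2 between SHR_OMT and SHR. The block moved the count of called genes from 4215 to 3550 and from 30 to 14. Counts of genes in SHR_OMT against SHR ran from 6 without SHR_OMT replicate 1 to 33. Hlf entered the fit with a mean FPKM of at least 0.5, where its adjusted p in SHR_OMT against SHR was 0.166, and 0.170 with a pseudocount of 0.1 as well, at a log2 change of 1.06. A mean FPKM of at least 5 leaves Hlf out. Read depth is unknown, which limits Hlf most.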

Other observations

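Per2, a clock repressor whose start-site window holds a D-box, resembled Hlf in the order of its groups, an observation made after the values were seen. It had 6.97, 7.99 and 7.12 FPKM in SHR_OMT, 3.71, 3.17 and 3.22 in SHR, and 3.62, 4.53 and 5.36 in WKY, so its mean was lowest in untreated SHR while its SHR and WKY libraries overlapped. Per1, another period gene, with a strong tie to stress hormones, varied widely within groups, and its correlation with Dbp was 0.358. It had 13.1, 20.72 and 9.71 FPKM in SHR_OMT, 14.0, 19.52 and 4.78 in SHR and 6.52, 7.31 and 10.57 in WKY. Per1 was not called in any comparison, and whether its pattern differed from that of Dbp was not tested.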
